A study of Arabidopsis thaliana with 57 samples.

Results

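The 9 libraries described here were made from young flowers of Arabidopsis thaliana hdp2-1 plants transformed with the transgene cassette ARE//AGe, out of 57 libraries in the series. They are defined by genotype, cassette and batch in the labels, with 3 libraries each from flowers scored Wt, rMf and sMf, and no measured value enters that definition. The labels do not spell out rMf and sMf, or the elements written before the double slash, and these names are used as given. The series title describes ARE as an element that acts against RNA-directed DNA methylation at a regulatory sequence. All 9 share the hdp2-1 genotype, the cassette and the batch, and their labels differ only in flower phenotype and replicate number. They were compared with 3 libraries of hdp2-1 without a cassette and with Wt flowers, and with 3 libraries of Col, the Columbia wild type, carrying ARE//AGe and with Wt flowers. All 15 libraries belong to batch B, whose libraries carry unique dual indexes. A replicate of plants with a cassette is a pool of RNA from several transformed lines that shared a phenotype, so its value averages over lines. The edgeR p-values use a spread between replicates that was estimated over all 57 libraries in 20 groups. The permutation tests use only the libraries compared. Copy numbers of the cassette were not used here.

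AGAMOUS (AG, AT4G18960) encodes a MADS-box transcription factor that specifies stamens and carpels in Arabidopsis flowers. Its expression depends on an enhancer inside its large intron, which is bound by the floral regulators LEAFY and WUSCHEL. In RNA-directed DNA methylation, noncoding transcripts and small RNAs guide cytosine methylation to matching DNA, and a methylated enhancer or promoter can be silenced. HDP2 is a transposon-derived protein that works with HDP1 in an Arabidopsis complex that protects sequences from such silencing by favouring histone acetylation and active DNA demethylation. The deposited table holds no reads for HDP2, so the mutant genotype could not be checked from it. Likewise the flower label has no marker gene here, since both counted regions lie at AG.

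Reads of each strand were counted over 2 regions of chromosome 4, giving 4 features. The enhancer region, AGe, spans chr4:10384147-10387145 (2999 bp, 28.6% GC) in TAIR10 and equals intron 2 of AG in 1 of its 4 annotated transcripts. An exon of 90 bp lies inside it in the remaining 3. The second region, AGp/M2, spans chr4:10380701-10382800 (2100 bp, 28.6% GC) and ends with 55 bases between it and the annotated start of AG. Its column header names both the AG promoter and M2 without saying which applies to which library. Neither region overlaps another annotated gene. AG is on the plus strand from 10382856 to 10388539, and sense here means the strand of AG. Reads from the endogenous locus and from a cassette copy cannot be told apart, and the orientation of AGe inside the cassette was not used here. In bulk flowers, fewer cells with the RNA and less RNA per cell cannot be told apart either.

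A window of 300 bases from each region shows the kind of sequence whose RNA was counted. The AGe window was chosen as the one with the most matches to 3 motifs known from this intron: the LEAFY motif CCANTG, the CCAATCA repeat and the WUSCHEL motif TTAATGG, each searched on both strands. The AGp window is the stretch of that region nearest to AG. Both are read on the plus strand from RefSeq TAIR10.1, in which intron 2 of AG has the same coordinates as AGe, and capitals mark motif matches.
AGe window, chr4:10386465-10386764: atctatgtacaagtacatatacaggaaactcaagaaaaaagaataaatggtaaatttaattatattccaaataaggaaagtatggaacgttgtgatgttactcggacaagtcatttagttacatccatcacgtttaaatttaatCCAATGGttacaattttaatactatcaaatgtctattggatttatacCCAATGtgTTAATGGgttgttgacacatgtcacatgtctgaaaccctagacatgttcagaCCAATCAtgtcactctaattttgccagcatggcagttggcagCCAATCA
AGp window, chr4:10382501-10382800: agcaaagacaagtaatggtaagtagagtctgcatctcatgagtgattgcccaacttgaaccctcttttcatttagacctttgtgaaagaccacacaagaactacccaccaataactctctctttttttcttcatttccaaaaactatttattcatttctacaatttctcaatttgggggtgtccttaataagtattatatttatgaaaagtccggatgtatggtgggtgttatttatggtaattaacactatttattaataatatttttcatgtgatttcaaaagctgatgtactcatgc
The AGe window holds 6 matches, of which 3 are to the LEAFY motif, 2 to the CCAATCA repeat and 1 to the WUSCHEL motif. A pair of the LEAFY matches overlap on opposite strands. In the AGp window none of these letters occur. Of the 300-base stretches that tile chromosome 4, 32.1% hold the LEAFY motif, 5.17% the CCAATCA repeat and 4.97% the WUSCHEL motif. Since the AGe window was chosen for its matches, these shares cannot test it. The whole of AGe holds 6 LEAFY matches, against a median of 4 in stretches of its length. It holds 2 CCAATCA and 1 WUSCHEL matches, motifs found in 41% and 40.1% of such stretches. The whole of AGp/M2 holds 1 LEAFY and 1 WUSCHEL match. A match describes letters and was not tested for binding.

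Levels are given as counts per 1000000 uniquely mapped reads (RPM). Uniquely mapped reads numbered 22398010 to 55848883 in the 9 libraries and 16259524 to 55848883 over all 15. AGe held 241 to 735 reads per library of the 9, and AGp/M2 held 10 to 61, so AGp/M2 values are the less precise ones. Multiply mapped reads, which do not enter the library size, made up 14.4% to 16.7% of mapped reads in the Wt libraries and 7.71% to 9.28% in the rMf and sMf libraries. These ranges do not overlap. Beside each comparison of Wt with rMf or sMf stands therefore a difference in this share, 15.5% ± 1.15 in Wt against 8.64% ± 0.707 in rMf and 8.56% ± 0.793 in sMf (SD, n = 3 each). The share was also lower, with no overlap, in rMf and sMf than in hdp2-1 without the cassette (13.7% ± 3.69) and in Col with ARE//AGe (13.4% ± 2.75, SD, n = 3 each). When all mapped reads were the library size, the AGe log2 differences of rMf minus Wt moved from 0.10 to 0.21 for sense and from 0.30 to 0.42 for antisense RNA, and that of sMf minus Wt from 0.00 to 0.12 for sense RNA. None of these was called under either library size. A feature is called different when its adjusted p is under 0.05 in the quasi-likelihood test of edgeR, adjusted by Benjamini-Hochberg over the 4 features. These 4 are all the features of the table, so the share called among all features tested is their own share.

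The first comparison asked whether RNA over the AG regions differed with flower phenotype in hdp2-1 carrying ARE//AGe. It did not detectably: in all 3 pairs of phenotypes and in the test over the 3 phenotypes together, 0 of 4 features (0%) were called. edgeR found 0 at an unadjusted p under 0.05 in each of these comparisons, and DESeq2 also called 0. Flowers scored Wt, rMf and sMf had about 9 RPM of AGe sense RNA, little antisense RNA, and low levels of AGp/M2 RNA on both strands.

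AGe sense RNA, which includes unspliced AG transcript, was 8.44, 9.33 and 8.56 RPM in the Wt libraries. In rMf it was 6.48, 11.3 and 10.4 RPM, and in sMf 9.82, 7.57 and 8.98 RPM. The lowest and the highest of the 9 values are both rMf libraries, and the 3 groups overlap. Group means were 8.78 ± 0.480 RPM in Wt, 9.39 ± 2.56 RPM in rMf and 8.79 ± 1.14 RPM in sMf (SD, n = 3 each). The log2 difference of rMf from Wt was 0.10 (95% interval -0.29 to 0.49), that of sMf from Wt was 0.00 (-0.39 to 0.39), and that of rMf from sMf was 0.10 (-0.29 to 0.49). For rMf against Wt this interval runs from 0.821-fold to 1.40-fold, and the data do not exclude changes within it.

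AGe antisense RNA, the strand opposite to AG, was 1.34, 1.20 and 1.43 RPM in Wt. It was 1.25, 1.86 and 1.79 RPM in rMf and 0.938, 1.40 and 1.12 RPM in sMf. The 2 highest libraries are rMf and the 2 lowest are sMf, but rMf replicate 1 lies within the range of both other groups. The means were 1.32 ± 0.116, 1.63 ± 0.334 and 1.15 ± 0.231 RPM (SD, n = 3 each) in Wt, rMf and sMf. The rMf minus sMf difference was the largest of this feature, at log2 0.48 (95% interval -0.16 to 1.13, adjusted p = 0.4867). For rMf minus Wt it was 0.30 (-0.33 to 0.93, adjusted p = 0.6754), and for sMf minus Wt -0.18 (-0.85 to 0.48, adjusted p = 0.9987).

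AGp/M2 sense RNA was 0.478, 0.536 and 0.247 RPM in Wt, from 15, 13 and 9 reads. In rMf it was 0.291, 0.430 and 0.754 RPM from 10, 24 and 19 reads, and in sMf 0.313, 0.698 and 0.471 RPM from 7, 26 and 13 reads. The groups overlap over most of their range. AGp/M2 antisense RNA was 0.541, 0.206 and 0.384 RPM in Wt, 0.494, 0.663 and 0.556 RPM in rMf, and 0.134, 0.537 and 0.507 RPM in sMf. The lowest values are those of a Wt and an sMf library, from 5 and 3 reads. For rMf minus Wt this antisense feature had the largest difference of the phenotype comparisons, at log2 0.58 (95% interval -0.25 to 1.40, adjusted p = 0.6525). With so few reads the AGp/M2 intervals are wide, and the sense interval of sMf minus Wt reached from -0.90 to 1.56.

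Exact permutation tests over the 3 phenotypes, which use only these 9 values, gave p = 0.875 for AGe sense, 0.143 for AGe antisense, 0.879 for AGp/M2 sense and 0.364 for AGp/M2 antisense RNA (two-sided). Here 1680 assignments are possible and the smallest p is 0.00357. Between 2 phenotypes with 3 libraries each, the exact test cannot go below 0.1.

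**Figure D1:**
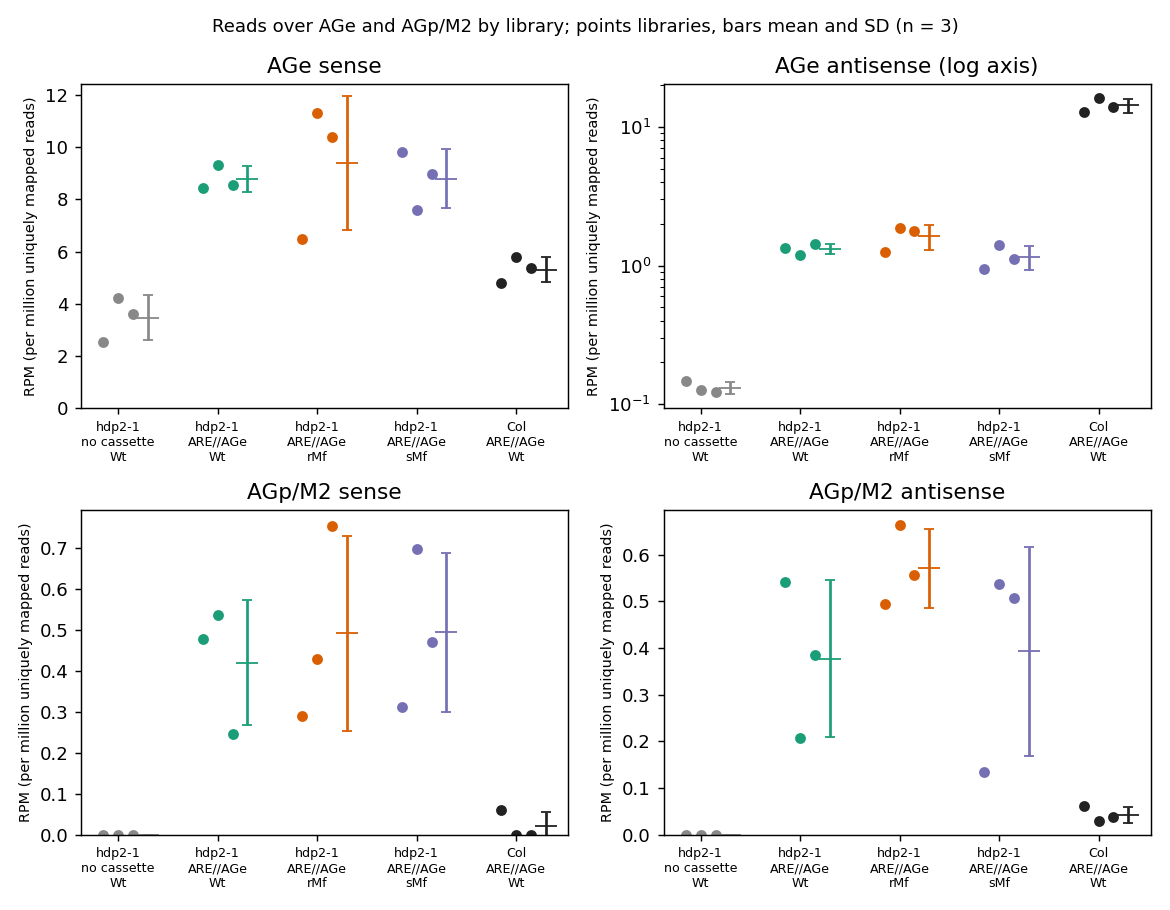
Reads of each strand over AGe and AGp/M2, in RPM, for the 15 libraries (points) with the mean and SD of each group (bars, n = 3); the AGe antisense axis is logarithmic. The Wt, rMf and sMf groups of hdp2-1 with ARE//AGe overlap for each feature, the group without a cassette lies below them, and Col with ARE//AGe lies above them only for AGe antisense RNA.

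The strand balance within AGe does not depend on library size. Antisense reads were 13.7%, 11.4% and 14.3% of AGe reads in Wt, 16.2%, 14.1% and 14.7% in rMf, and 8.71%, 15.6% and 11.1% in sMf. The sMf libraries hold both the lowest share and one inside the rMf range. Mean shares were 13.1% ± 1.54, 14.99% ± 1.05 and 11.8% ± 3.48 (SD, n = 3 each), and an exact permutation test over the 3 phenotypes gave p = 0.325. The Wilson 95% interval of the lowest library, sMf replicate 1, was 5.77% to 13.0%, and that of the highest, rMf replicate 1, was 12.2% to 21.1%. These intervals cover counting error only. In AGp/M2 the strands were nearly balanced, with 48.1% ± 13.1 antisense over the 9 libraries (SD, n = 9), and the groups overlapped.

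**Figure D2:**
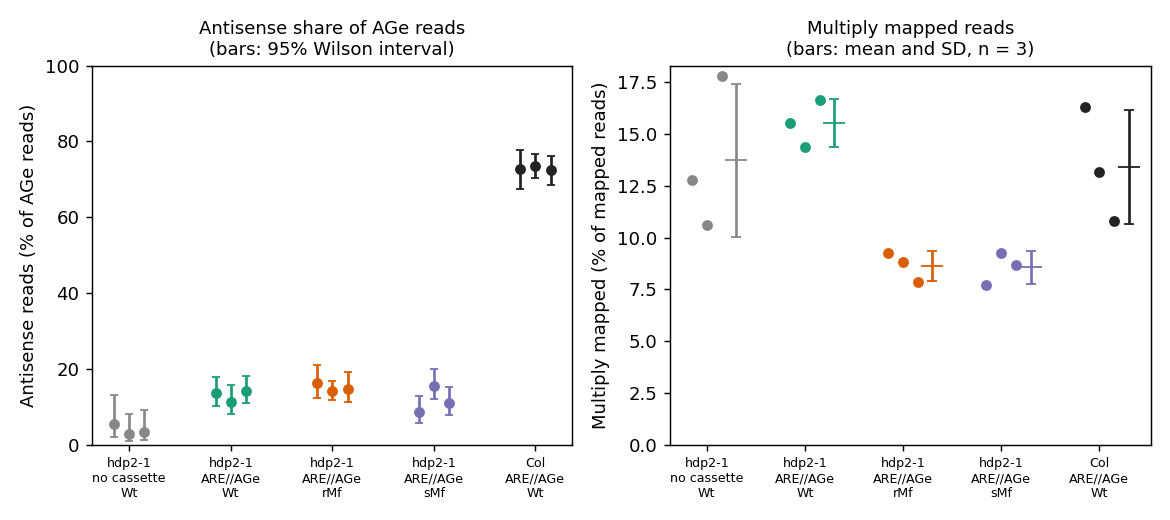
Left, antisense reads as a percentage of AGe reads in each library, with Wilson 95% intervals. Right, multiply mapped reads as a percentage of mapped reads, with the mean and SD of each group (n = 3). The 9 hdp2-1 libraries with the cassette lie between 8.71% and 16.2% antisense and the Col libraries near 73%, while the multiply mapped share sets Wt apart from rMf and sMf.

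The second comparison asked what differed between hdp2-1 with and without ARE//AGe. All 4 features (100%) were higher with the cassette, in each phenotype and in the 9 libraries together, with the largest adjusted p of these comparisons at 0.0003523. AGe sense RNA was 2.55, 4.23 and 3.62 RPM without the cassette, below each of the 9 libraries with it (lowest 6.48, median 8.98, highest 11.3 RPM). The means were 3.47 ± 0.850 (SD, n = 3) and 8.99 ± 1.45 RPM (SD, n = 9), a log2 difference of 1.38 ± 0.18 (SE, adjusted p = 2.743e-09). In the single phenotypes the log2 differences were 1.34 for Wt, 1.44 for rMf and 1.34 for sMf. Since multiply mapped reads were 8.64% in rMf and 8.56% in sMf against 13.7% without the cassette, the same differences were taken over all mapped reads, and they were then 1.52 for rMf and 1.43 for sMf.

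AGe antisense RNA without the cassette was 0.146, 0.127 and 0.122 RPM, from 4, 3 and 3 reads. With the cassette it ranged from 0.938 to 1.86 RPM with a median of 1.34 RPM, and the groups do not overlap. The log2 difference was 3.33 ± 0.44 (SE, adjusted p = 2.743e-09), and the single phenotypes gave 3.29 in Wt, 3.59 in rMf and 3.11 in sMf. The antisense share of AGe reads was 3.86% ± 1.35 (SD, n = 3) without it and 13.3% ± 2.41 (SD, n = 9) with it. The exact permutation test of this share, of 9 against 3 libraries, gave p = 0.00455, the smallest that 220 splits allow. The same p was found for the RPM of each of the 4 features. In batch B, AGe antisense RNA did not follow the cassette label in every genotype. The mutant suvh1-2 without a cassette had 0.880 RPM over all its reads (60 reads), against 0.551 RPM in its Wt flowers with ARE//AGe. Col and the mutant hdp1-1 without a cassette had 0.263 and 0.113 RPM.

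AGp/M2 RNA was seen in each of the 9 libraries with the cassette, on both strands, and in none of the 3 without it. The latter held 0 reads among 75646597 uniquely mapped reads, which allows up to 0.0397 RPM per strand. In batch B this RNA did not follow the cassette label in every genotype. The mutant suvh1-2 without a cassette held 15 sense and 27 antisense AGp/M2 reads (9 to 17 per library). Col with ARE//AGe held 4 of both strands together. The 9 hdp2-1 libraries with the cassette averaged 0.469 ± 0.175 RPM sense and 0.447 ± 0.174 RPM antisense (SD, n = 9). Relative to the limit of 0.0397 RPM, set by 3 reads over the group, the mean levels were at least 11.8-fold higher for sense and at least 11.3-fold higher for antisense RNA. Such bounds allow for the limit without a cassette, and not for the spread of the libraries with it. The edgeR test, which does not use these ratios, called both strands (adjusted p = 6.143e-05 and 2.11e-07). Leaving out replicate 1 of hdp2-1 without the cassette, which had the most reads of that group, lowered the bounds to 7.53-fold and 7.18-fold. For both strands together, the bound was 20.1-fold in Wt, 26.8-fold in rMf and 22.3-fold in sMf, and without that library 12.8-fold, 17.1-fold and 14.2-fold. Scaled to region length, the 9 libraries had 3.00 RPM per kb of AGe sense RNA against 0.223 RPM per kb of AGp/M2 sense RNA, and 0.456 against 0.213 RPM per kb on the antisense strand.

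The third comparison set the 9 hdp2-1 libraries beside Col with the same cassette. Much less AGe antisense RNA was present in hdp2-1, while AGe sense RNA and both strands of AGp/M2 RNA were higher than in Col of the same batch. All 4 features (100%) were called for the 9 libraries together and for each phenotype. Multiply mapped reads were 13.4% in Col, above rMf and sMf, and over all mapped reads the AGe antisense log2 difference from Col was -3.05 in rMf and -3.54 in sMf, and the sense difference 0.90 and 0.80. Only the Wt libraries of hdp2-1 share the flower phenotype of Col, so in the other comparisons phenotype and genotype differ together. The contrast with Col ARE//AGe is not particular to hdp2-1. Over all reads of a group, AGe antisense RNA was 0.821 to 1.17 RPM in hdp1-1 and 0.551 to 1.30 RPM in suvh1-2 with ARE//AGe. In Col with the cassette AGP//AGe, of batch A, it was 0.799 to 1.12 RPM. AGp/M2 RNA of both strands was 0.529 to 0.767, 0.564 to 0.870 and 0.334 to 0.625 RPM in these plants, in the same order. Their AGe sense RNA was 7.45 to 11.1, 6.93 to 10.6 and 7.87 to 13.9 RPM. Col with ARE//AGe had 5.43 RPM of it in batch B and 14.5 RPM in batch A.

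AGe antisense RNA was 12.9, 16.1 and 14.1 RPM in Col with ARE//AGe, and no hdp2-1 library exceeded 1.86 RPM. The means were 14.3 ± 1.64 RPM (SD, n = 3) and 1.37 ± 0.299 RPM (SD, n = 9), a 10.5-fold lower level in hdp2-1 (log2 -3.39 ± 0.21 SE, adjusted p = 1.284e-19). By phenotype, the log2 difference was -3.43 in Wt, -3.13 in rMf and -3.61 in sMf. Antisense reads were the majority of AGe reads in Col, at 72.9% ± 0.582 (SD, n = 3), and a minority in each hdp2-1 library. The exact permutation test gave p = 0.00455 for level and share, the smallest possible.

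AGe sense RNA was 4.80, 5.78 and 5.35 RPM in Col with ARE//AGe of batch B, below the 9 hdp2-1 libraries. The difference from 8.99 to 5.31 ± 0.493 RPM (SD, n = 3) was log2 0.75 ± 0.17 (SE, adjusted p = 7.256e-05). This direction rests on the batch B control. In batch A, whose libraries carry other index primers, Col with ARE//AGe had 14.5 ± 0.640 RPM sense RNA (SD, n = 3, lowest 13.8 RPM), above each hdp2-1 library, and 12.8 ± 0.719 RPM antisense RNA. Batch A has no hdp2-1 library, so no comparison within it was possible. The antisense level of Col was thus far above that of hdp2-1 in either batch, and the sense level lay on different sides of it.

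AGp/M2 RNA in Col with ARE//AGe came to 1 sense read and 3 antisense reads over 3 libraries, against 136 and 141 in the 9 hdp2-1 libraries. Per uniquely mapped read the sense ratio was 35.6, with a 95% counting interval from 6.29 upwards, and the antisense ratio was 12.3 (4.13 to 60.4). These intervals cover counting error only. The edgeR fit gave 27.4-fold for sense and 10.6-fold for antisense RNA, and both were called (adjusted p = 0.0001711 and 1.222e-05). The sense read was in Col replicate 1. With that library left out, the mean of hdp2-1 was at least 9.52-fold above the limit of 3 reads, its own spread not included. AGp/M2 reads made up 8.16% ± 2.40 (SD, n = 9) of the reads of both regions in hdp2-1 and 0.339% ± 0.307 (SD, n = 3) in Col.

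**Figure D3:**
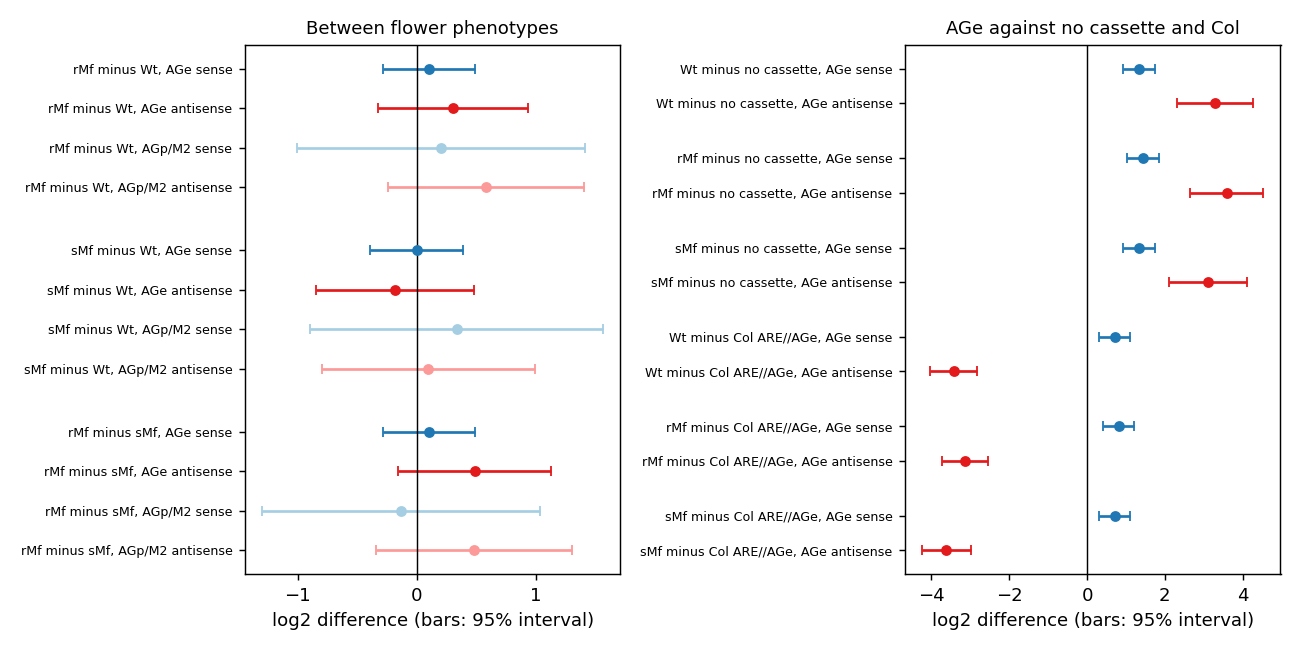
Log2 differences with 95% intervals from the fit over 57 libraries. Left, the 3 pairs of flower phenotypes, with every interval across 0; right, AGe of each phenotype against no cassette and against Col with ARE//AGe, with no interval across 0 and antisense RNA above the former and below the latter.

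Whether the cassette went with a different change in hdp2-1 than in Col was tested directly, with Wt flowers on all sides. In Col of batch B, AGe sense RNA was 7.87 ± 0.980 RPM without and 5.31 ± 0.493 RPM with the cassette (SD, n = 3 each), and antisense RNA was 0.253 ± 0.0545 and 14.3 ± 1.64 RPM. Without the cassette hdp2-1 had 3.47 RPM sense RNA, a lower starting level than in Col. With it, Wt flowers of hdp2-1 were above Col by log2 0.72, so the difference of changes below includes that lower start. The change in hdp2-1 exceeded that in Col by log2 1.90 ± 0.28 for sense RNA (SE, adjusted p = 1.197e-07) and fell short of it for antisense RNA, at log2 -2.48 ± 0.77 (SE, adjusted p = 0.005137), so that both features that could be estimated (100%) were called. For AGp/M2 no difference of changes could be estimated, because neither genotype had a read without the cassette. The low start and the rise are not particular to hdp2-1. Wt flowers of hdp1-1 had 3.93 RPM AGe sense RNA without and 11.1 RPM with ARE//AGe, over all reads of a group. Their AGe antisense RNA was 0.113 and 1.16 RPM, and their AGp/M2 reads of both strands numbered 2 and 47. The change in hdp1-1 was not tested against that in Col.

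The phenotype differences of hdp2-1 were also set against those of other plants with the same labels. In hdp1-1 with ARE//AGe, mutant in the partner of HDP2, AGe sense RNA was 10.4 ± 2.65 RPM in Wt (SD, n = 3), 7.63 and 7.37 RPM in the 2 rMf libraries, and 8.65 ± 0.599 RPM in sMf (SD, n = 3). The rMf minus Wt difference of hdp2-1 minus that of hdp1-1 was log2 0.58 for sense RNA (95% interval from -0.00185, adjusted p = 0.2028), and 0 of 4 features were called. For sMf minus Wt the smallest adjusted p was 0.7191. edgeR found 0 features at an unadjusted p under 0.05 in both, and DESeq2 called 0. In hdp1-1 the multiply mapped share reached 31.1% ± 4.65 in sMf (SD, n = 3), against 8.56% in hdp2-1 sMf. Without hdp1-1 Wt replicate 3 or hdp2-1 rMf replicate 1 the sense difference of rMf minus Wt passed (log2 0.76 and 0.79, adjusted p = 0.04295 and 0.0258).

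suvh1-2 lacks SUVH1, a reader of DNA methylation that promotes transcription of nearby genes. In suvh1-2 with ARE//AGe, AGe antisense RNA was 0.505 and 0.602 RPM in the 2 Wt libraries and 0.997, 1.18 and 1.69 RPM in sMf. The sMf minus Wt difference of hdp2-1, which did not pass by itself, minus that of suvh1-2 was log2 -1.41 ± 0.51 (SE, adjusted p = 0.03587). The call was lost with all mapped reads as library size (log2 -1.22, adjusted p = 0.1284) and without libraries of over 20% multiply mapped reads (log2 -1.16, adjusted p = 0.06455). It was also lost when any 1 of 7 libraries was left out, with adjusted p up to 0.1686: suvh1-2 Wt replicates 2 and 3, suvh1-2 sMf replicate 3, hdp2-1 Wt replicates 1 and 3, and hdp2-1 sMf replicates 1 and 3. The other 3 features were not called, which makes 25% called.

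Col with AGP//AGe, a cassette of batch A whose label does not name ARE, has the same 3 phenotypes. Its AGe sense RNA was 11.8 ± 1.82 RPM in Wt, 7.92 ± 0.972 RPM in rMf and 14.0 ± 2.34 RPM in sMf (SD, n = 3 each). In the deposited table, sMf replicate 3 of this group has more mapped reads (40469858) than total reads (39799294). Its mapped reads over the total reads of replicate 2 (42810312) give the 94.5% mapped listed for replicate 2. The mapped reads of replicate 2 (37918832) over the total of replicate 3 give the 95.3% listed for replicate 3. The entries thus appear exchanged between these replicates, and which of them go with the strand counts is not given. The rMf libraries lie below the others, whereas in hdp2-1 the rMf mean was not below the sMf mean. The rMf minus sMf difference of hdp2-1 exceeded that of Col AGP//AGe by log2 0.92 ± 0.27 (SE, adjusted p = 0.005924), and this feature alone (25%) was called. It was not called when only these groups were fitted (log2 0.91, adjusted p = 0.1462). With the depths of sMf replicates 2 and 3 exchanged, it was log2 0.92 (adjusted p = 0.005919). For rMf minus Wt the sense difference was log2 0.68 ± 0.27 (SE, adjusted p = 0.06383) and 0 of 4 features were called, with 1 at an unadjusted p under 0.05 and 1 called by DESeq2. Without hdp2-1 rMf replicate 1 its adjusted p was 0.005566, and without AGP//AGe rMf replicate 1 or Wt replicate 2 it was 0.0437 and 0.03832. Genotype, cassette and batch differ together in these contrasts and cannot be told apart.

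**Figure D4:**
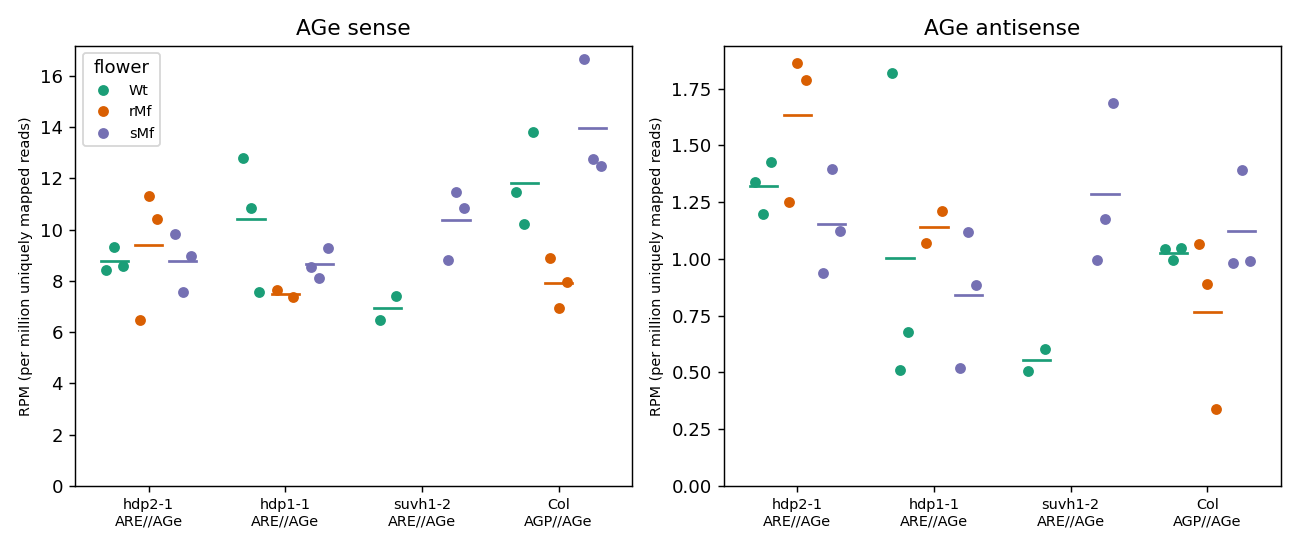
AGe sense (left) and antisense (right) RNA in RPM by flower phenotype in hdp2-1, hdp1-1 and suvh1-2 with ARE//AGe and in Col with AGP//AGe, with points for libraries and lines for means (2 or 3 libraries each). In Col AGP//AGe the rMf libraries have less sense RNA than the others, at a mean of 7.92 RPM against 14.0 RPM in sMf, while in hdp2-1 the 3 phenotypes overlap.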

How the data were processed

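Strand-specific total RNA libraries were depleted of ribosomal RNA and sequenced on a HiSeq X-Ten, per the labels' protocols. The authors used HISAT2 and HTSeq 0.13.5 with TAIR10, per the submitters' processing notes; their settings were not used here. The deposited table gives raw read counts per strand and region, and RPM, which equalled counts / uniquely mapped reads × 1000000 (largest gap 0.0). It also holds the percent of mapped reads, deposited by the authors and used only to describe libraries.

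Counts, with uniquely mapped reads as library size, were fitted with edgeR 4.0.16 (R 4.3.3) over 57 libraries in 20 groups, with 37 residual degrees of freedom and a common dispersion of 0.0364 (coefficient of variation 19.1%). With 4 features, no scaling between libraries beyond depth and no gene lists were possible. The pooled comparisons gave the 3 phenotypes equal weight. The 95% intervals and SE come from the F statistic. Alternatives were other library sizes, DESeq2 1.42.0, other sample sets and left-out libraries. By rule, every feature was tested in every comparison in which it could be estimated, and not every estimate is printed. This set of libraries, its comparisons and features were chosen for description with earlier results of these data known.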

Additional observations from a re-analysis of the deposited data

Results flagged for a closer look

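4 values were picked out because an effect differed between groups of plants by a test of that difference (edgeR's quasi-likelihood test, adjusted over 4 features).

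The change in AGe RNA with ARE//AGe differed between hdp2-1 and Col, both with Wt flowers. For sense RNA hdp2-1 minus Col was log2 1.90 (adjusted p = 1.197e-07, 1.72 to 2.07 with each library left out), and for antisense RNA it was log2 -2.48 (adjusted p = 0.005137, -2.68 to -2.33 with each library left out). Both calls held in each of these fits and in 10 other settings. Sense RNA without the cassette was lower in hdp2-1 than in Col, as given above.

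For sMf minus Wt, AGe antisense RNA differed between hdp2-1 and suvh1-2 by log2 -1.41 (adjusted p = 0.03587, -1.58 to -1.16 with each library left out). It was called in 4 of these 11 fits, and neither with all mapped reads as library size (log2 -1.22, adjusted p = 0.1284) nor without libraries over 20% multiply mapped (log2 -1.16, adjusted p = 0.06455). In suvh1-2 the 3 sMf libraries lay above both Wt libraries, and in hdp2-1 the groups overlapped. suvh1-2 sMf replicate 3, the highest of them at 1.69 RPM, had 21.5% multiply mapped reads; the part of this in the difference was not tested.

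For rMf minus sMf, AGe sense RNA differed between hdp2-1 with ARE//AGe and Col with AGP//AGe by log2 0.92 (adjusted p = 0.005924, 0.76 to 1.13 with each library left out, called in all 12 of these fits). It was called in 9 of 10 other settings and not when the fit held these groups alone (log2 0.91, adjusted p = 0.1462). These groups belong to different batches.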

How the results depend on the processing

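The 4 features kept their direction and call in all cassette and Col comparisons with each library left out (240 values) and under the other settings (318 values). Leaving out features under a mean of 10 reads tested and called only 2 features in Wt and sMf against no cassette and against Col. No phenotype comparison called a feature in its 10 other settings (40 results over these comparisons) or with a library left out (27 results). Numbers of replicates were not taken to pair samples. Of 30 pairs of equal number 13 had r over 0.1 (-0.966 to 0.913). Each r rests on the 4 features alone and pairs of unequal number were not compared, so these values cannot decide whether samples are paired. A replicate block changed no count of calls, and under it the rMf minus Wt difference from hdp1-1 for AGp/M2 antisense RNA, -0.01, was 0.020; all mapped reads gave 0.042, a prior count of 2 gave 0.019 and DESeq2 0.0073. The sMf minus Wt AGe sense difference, 0.00032, turned to -0.0011 with DESeq2, -0.00024 without libraries over 20% multiply mapped, and -0.0050 with only the compared groups.

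Counts of called features moved for differences between plants. That from suvh1-2, 1 of 4, was 0 with all mapped reads or without highly multiply mapped libraries, 2 with only the compared groups, and 0 to 1 with a library left out. For rMf minus Wt against Col AGP//AGe, 0 became 1 with DESeq2 or adjustment over all comparisons, and 0 to 1 with a library left out. For rMf minus sMf, 1 became 2 without highly multiply mapped libraries and 0 with only the compared groups, and 1 to 2 with a library left out: AGe antisense RNA passed without AGP//AGe rMf replicate 1 or hdp2-1 rMf replicate 1 (adjusted p = 0.02697 and 0.03942). Against hdp1-1, rMf minus Wt gave 0 to 1.

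With a library left out, uncalled log2 differences changed sign. Between phenotypes, rMf minus Wt ranged from -0.061 to 0.31 for AGe sense and from -0.14 to 0.44 for AGp/M2 sense. sMf minus Wt ranged from -0.086 to 0.099 for AGe sense, -0.035 to 0.54 for AGp/M2 sense and -0.21 to 0.43 for AGp/M2 antisense. rMf minus sMf ranged from -0.061 to 0.31 for AGe sense and -0.47 to 0.24 for AGp/M2 sense. Against hdp1-1, rMf minus Wt ranged from -0.69 to 0.54 for AGe antisense, -0.57 to 0.39 for AGp/M2 sense and -0.25 to 0.31 for AGp/M2 antisense, and sMf minus Wt from -0.69 to 0.53 for AGe antisense and -0.018 to 0.80 for AGp/M2 sense. Against suvh1-2, AGp/M2 sense ranged from -1.26 to 0.089, and against Col AGP//AGe, rMf minus Wt for AGp/M2 antisense from -0.70 to 0.53. The antisense share of sMf minus Wt, -1.32 points, ranged from -3.20 to 0.227. AGp/M2 depth, at 10 to 61 reads per library, limits what could be detected between phenotypes.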

Other observations

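Over the 9 hdp2-1 libraries with ARE//AGe, the levels of the 4 features were compared in 6 pairs. AGe antisense and AGp/M2 antisense RNA had the closest relation, with Pearson's r = 0.732 (exact permutation p = 0.0271, adjusted p = 0.163) and Spearman's rho = 0.75 (exact permutation p = 0.0255, adjusted p = 0.153). Without the 2 libraries farthest from the median of AGe antisense RNA, r was 0.637. None of the 6 relations passed after adjustment, and the levels share the library's depth.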
